A study of Arabidopsis thaliana with 12 samples.

Results

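In the array's annotation, 8 of the 38408 probe sets in the deposited table were paired with a single transcription factor gene of the WRKY, NAC, ERF and MYB families. Only 17481 of the 38408 were paired with any gene, and the others could not be searched by name. The 8 were chosen by name: the probe set had to be paired with a single gene, and the gene's symbol in the array's annotation had to start with WRKY, NAC, ANAC, ERF or MYB followed by a digit. The rule used no measured value. It found 7 WRKY genes, namely WRKY6 (AT1G62300), WRKY20 (AT4G26640), WRKY22 (AT4G01250), WRKY29 (AT4G23550), WRKY41 (AT4G11070), WRKY42 (AT4G04450) and WRKY47 (AT4G01720), and 1 NAC gene, NAC014 (AT1G33060), each with 1 probe set, among the 16722 probe sets paired with a single gene, which stand for 16550 genes. It found 0 ERF and 0 MYB genes, so these families are not described here except through AP2/ERF genes that go by other names. In the gene table of the TAIR10.1 assembly 7 of 67 WRKY, 1 of 81 NAC, 0 of 23 ERF and 0 of 120 MYB protein-coding genes were paired with a probe set of their own. The 8 members are thus a small part of 291 genes, not drawn at random. The others may have probe sets that the annotation leaves unpaired.

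The samples were pools of whole Arabidopsis thaliana seedlings of the ecotype Col-0, with 12 arrays in 4 groups of 3 biological replicates. The rb10 light group held rb10 seedlings kept 5 days in darkness and then 1 h in white light, and the rb10 dark group held rb10 seedlings collected after the 5 days without light. The WT light and WT dark groups were the same for wild type. All groups were grown on half-strength MS medium with no sucrose. The labels do not say what rb10 stands for. It is known as a mutant line of RAPTOR1B, a protein that brings substrates to TOR, the kinase that ties growth to nutrients. Whole seedlings mix cotyledon, hypocotyl and root, and in such bulk RNA fewer cells of a type and less RNA per cell cannot be told apart.

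WRKY factors are plant proteins that bind the W box, a short DNA element, through a domain named for its WRKY peptide, and many of them act in immunity, senescence and nutrient responses. NAC factors share a DNA-binding domain of the same name and act in senescence, stress and cell wall formation. The members fall into known structural groups. WRKY6, WRKY42 and WRKY47 belong to group IIb, of which WRKY6 and WRKY42 control phosphate transport and WRKY47 is known for the response to low boron. WRKY22 and WRKY29, of group IIe, act below the MAP kinase cascade set off by bacterial flagellin, and WRKY22 also takes part in leaf senescence in the dark. WRKY41, of group III, acts in seed dormancy, and WRKY20 belongs to group I, whose proteins carry a pair of WRKY domains. NAC014 belongs to the NAC factors with a predicted membrane anchor.

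RAPTOR1B (AT3G08850) read 10.90, 10.89 and 11.13 (log2 signal) on the rb10 light arrays. It read 11.06, 11.08 and 11.60 on the arrays labelled rb10 dark replicates 1, 2 and 3. The WT light arrays read 11.58 to 11.69 and the WT dark arrays 11.63 to 11.84. The array labelled rb10 dark replicate 3 thus lay above every other rb10 array and among the WT light arrays. Across all probe sets with a gene it correlated at 0.9796 on average with the rest of its labelled group and at 0.9909 with the WT dark group. Of the 8 members, 6 read closer on it to the WT dark mean than to the mean of the other rb10 dark arrays. Among these, WRKY20 (10.40, against means of 10.51 and 10.52) and WRKY29 (9.64, against 9.73 and 9.79) read below both means, so their closeness says little. WRKY47 (10.03, against 10.23 and 9.80) lay nearly midway. The same share over all probe sets was not computed, so the count of members cannot be judged against it. No array was relabelled or dropped, and it is called the doubted array where results are given with it left out. Array medians over all probe sets lay between 6.72 and 6.91, and setting them equal would lower every rb10 minus WT difference after light by a further 0.15.

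The plot of signals by array shows the 8 members in all 4 groups. Of these, 4 were called in at least 1 comparison (WRKY6, WRKY22, WRKY47 and NAC014). The share of all probe sets called in at least 1 comparison was not computed, and between the genotypes after light alone 19.2% of them were called. The signals ran from 4.59 to 5.20 for WRKY41, the dimmest, up to 10.14 to 11.82 for WRKY6, the brightest. Brightness also depends on the probes, so it does not rank the transcripts. Each change is given on the log2 signal scale, with its standard error (SE) from a limma fit to all 17481 probe sets that have a gene, with n = 3 arrays per group. A member was called at an adjusted p (Benjamini-Hochberg over all 17481) under 0.05, and the arrays' number limits the precision.

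**Figure D1:**
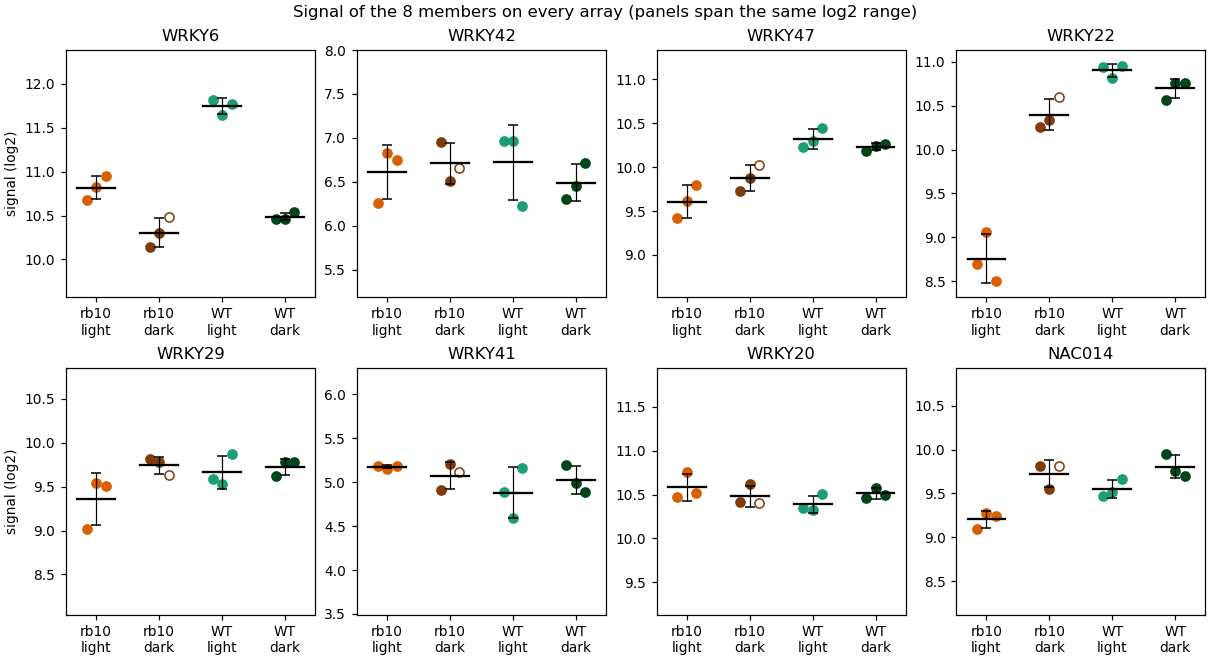
Signal (log2, vertical axes spanning the same range) of each member on each of the 12 arrays, by group; lines and bars are means ± SD over 3 arrays, and the open circle is the array labelled rb10 dark replicate 3. WRKY22 sits lowest on the rb10 light arrays (8.51 to 9.06) and WRKY6 highest on the WT light arrays (11.65 to 11.82), while WRKY42, WRKY41 and WRKY20 overlap between the groups.

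In rb10, the question was which members responded to 1 h of light. WRKY22 fell, WRKY6 rose and NAC014 fell, and the other 5 members did not pass the test. That was 3 of 8 members, where 7.17% of all probe sets passed (3.42% up and 3.75% down). With the array labelled rb10 dark replicate 3 left out it was 2 of 8, where 6.34% of all passed. WRKY22 read 8.70, 9.06 and 8.51 on the rb10 light arrays, against 10.26, 10.34 and 10.60 on the rb10 dark arrays. Every rb10 light array was thus more than 1 log2 unit below every rb10 dark array. The change was -1.64 (SE 0.15, limma adjusted p = 6.86e-05), a 3.12-fold fall, and its size lay at percentile 98.9 of all probe sets. It was -1.54 (SE 0.15, adjusted p = 0.000291) with the doubted array left out.

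WRKY6 read 10.68, 10.83 and 10.95 on the rb10 light arrays and 10.14, 10.30 and 10.48 on the rb10 dark arrays, and these did not overlap. It rose by 0.51 (SE 0.11, limma adjusted p = 0.0207), which is 1.43-fold, and by 0.60 (adjusted p = 0.0119) with the doubted array left out. NAC014 read 9.10, 9.28 and 9.25 on the rb10 light arrays and 9.82, 9.55 and 9.81 on the rb10 dark arrays, which did not overlap either. It changed by -0.52 (SE 0.12, adjusted p = 0.0219), and by -0.47 (adjusted p = 0.0621) with the doubted array left out. The calls of WRKY6 and NAC014 were near the threshold. In a fit of the 6 rb10 arrays they stood at adjusted p = 0.124 and adjusted p = 0.0991, and WRKY6 stood at adjusted p = 0.056 with equal array medians. The call of WRKY6 was also lost without rb10 light replicate 2 or 3 or rb10 dark replicate 1 or 2 (adjusted p = 0.0559 to 0.0805). The call of NAC014 was lost without any 1 of the 3 rb10 light arrays or without rb10 dark replicate 1 or 3 (adjusted p = 0.0505 to 0.0764).

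Among the members that did not pass in rb10, WRKY29, the group IIe relative of WRKY22, had the next smallest p. Its rb10 light arrays (9.02 to 9.54) lay below its rb10 dark arrays (9.64 to 9.81), with a change of -0.38 (SE 0.15, limma adjusted p = 0.186), or -0.43 (adjusted p = 0.206) with the doubted array left out. In all, 4 of the 8 members had rb10 light and dark arrays that did not overlap, where 24.5% of all probe sets did. WRKY47 changed by -0.27 (SE 0.12), or by -0.19 (SE 0.13) with the doubted array left out, and passed in neither fit. WRKY20 (0.10), WRKY41 (0.10) and WRKY42 (-0.10) were closest to 0, with 95% confidence intervals from -0.15 to 0.35, -0.23 to 0.43 and -0.60 to 0.41.

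In WT the same hour of light raised WRKY6 and moved no other member past the test. That was 1 of 8, where 6.89% of all probe sets passed (4.62% up and 2.27% down). WRKY6 read 11.82, 11.65 and 11.77 on the WT light arrays, against 10.46, 10.47 and 10.54 on the WT dark arrays. The groups were more than 1 log2 unit apart. The change was 1.26 (SE 0.11, limma adjusted p = 5.27e-05) and stayed between 1.22 and 1.31 and past the threshold in all 20 alternatives that were run.

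WRKY22 read 10.94, 10.82 and 10.95 on the WT light arrays and 10.57, 10.76 and 10.76 on the WT dark arrays. The light arrays were the higher ones, but the change of 0.21 (SE 0.15, 95% interval -0.12 to 0.53) did not pass (adjusted p = 0.508). NAC014 read 9.47, 9.52 and 9.66 in WT light and 9.95, 9.76 and 9.70 in WT dark, a change of -0.25 (SE 0.12, adjusted p = 0.27). With WRKY6 these made 3 members whose WT light and dark arrays did not overlap, where 27.6% of all probe sets did. The remaining 5 WRKY members changed by -0.15 (WRKY41) to 0.23 (WRKY42).

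**Figure D2:**
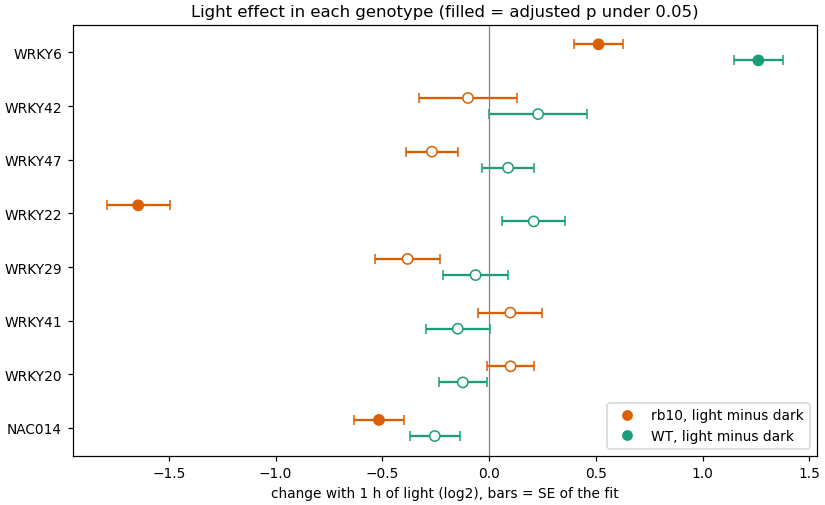
Change in log2 signal with 1 h of light (horizontal axis) for each member in rb10 (orange) and WT (green), with bars of 1 SE from the fit and filled points for adjusted p under 0.05. WRKY6 lies right of 0 in both genotypes (0.51 in rb10, 1.26 in WT), and WRKY22 lies far left in rb10 (-1.64) and near 0 in WT (0.21).

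Whether light acted differently in the genotypes was tested directly, as the light effect in rb10 minus that in WT. WRKY22 and WRKY6 passed, both with the lower light effect in rb10, which was 2 of 8 members where 2.17% of all probe sets passed (0.503% up and 1.67% down). With the array labelled rb10 dark replicate 3 left out it was 1 of 8, where 2.25% of all passed. For WRKY22 the difference was -1.85 (SE 0.21, 95% interval -2.31 to -1.39, limma adjusted p = 0.0019). It was lower still or equal in only 85 of 17481 probe sets (0.486%). The call held in all 19 alternatives, with values from -2.00 to -1.73, and it was -1.75 (adjusted p = 0.00508) with the doubted array left out.

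For WRKY6 the difference was -0.75 (SE 0.16, 95% interval -1.11 to -0.39, limma adjusted p = 0.0401). It kept its direction in every alternative (-0.83 to -0.66), but at the adjusted p alone the call was held in 8 of the 19, the adjusted p running up to 0.11. It was -0.66 (adjusted p = 0.0603) with the doubted array left out. The arrays whose loss ended the call were rb10 light replicates 1 and 2, rb10 dark replicates 2 and 3, and all 6 WT arrays. The other 6 members had differences from -0.36 (WRKY47) to 0.25 (WRKY41), none of them called with or without the doubted array. NAC014, with a difference of -0.26 (SE 0.16, adjusted p = 0.573), was called in rb10 and not in WT, and its light effects were not shown to differ.

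**Figure D3:**
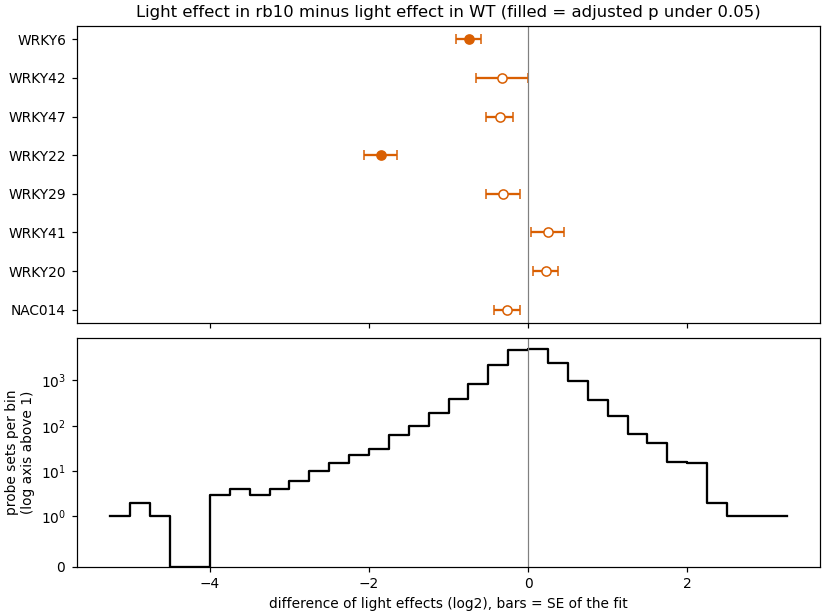
Upper panel: light effect in rb10 minus light effect in WT (log2, horizontal axis) for each member, with bars of 1 SE and filled points for adjusted p under 0.05. Lower panel: the same quantity over all 17481 probe sets in bins of 0.25, on a log axis above 1; WRKY22 at -1.85 lies far out in the left tail and WRKY6 at -0.75 nearer the centre.

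After light, 3 members were lower in rb10 than in WT, and none was higher. These were 3 of 8, where 19.2% of all probe sets passed (9.72% higher and 9.47% lower). The same 3 were called with the doubted array left out, where 23.6% of all passed. WRKY22 differed most, with the values by array given above (8.51 to 9.06 on the rb10 light arrays, 10.82 to 10.95 on the WT light arrays). Its difference was -2.15 (SE 0.15, limma adjusted p = 2.4e-05), so its signal was 4.43-fold lower in rb10. WRKY6 averaged 10.82 ± 0.14 in rb10 light and 11.75 ± 0.09 in WT light (SD, n = 3 each), a difference of -0.93 (SE 0.11, adjusted p = 0.00048). It was thus higher after light in both genotypes and lower in rb10 than in WT.

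WRKY47 read 9.42, 9.62 and 9.79 on the rb10 light arrays, against 10.23, 10.30 and 10.44 on the WT light arrays. It was lower in rb10 by 0.71, a difference of -0.71 (SE 0.12, limma adjusted p = 0.00296), although light itself had moved it past the test in neither genotype. The directions and calls of WRKY22, WRKY6 and WRKY47 held in all 20 alternatives at the adjusted p alone. Where a change of at least 1 was asked for as well, WRKY22 alone of the 3 passed. NAC014 did not overlap between rb10 light (9.10 to 9.28) and WT light (9.47 to 9.66), but its difference of -0.34 (SE 0.12) missed the threshold (adjusted p = 0.0645). It passed in 3 of 20 alternatives, which makes 4 members called: with equal array medians (-0.49, adjusted p = 0.0243), with the lowest 25% of probe sets left out (adjusted p = 0.0427) and where the prior was robust and followed the signal (adjusted p = 0.0394). In all, 4 members did not overlap between the genotypes after light, where 38.6% of all probe sets did.

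WRKY29 (-0.30, SE 0.15), WRKY42 (-0.11, SE 0.23), WRKY20 (0.19, SE 0.11) and WRKY41 (0.29, SE 0.15) did not pass between the genotypes after light. The 95% intervals of these 4 differences reached no further than -0.64 at the low end and 0.62 at the high end. A difference in signal as large as that of WRKY22 was therefore outside the interval of each. WRKY41 was the dimmest member (4.59 to 5.20), and whether its signal lay above background could not be stated.

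In the dark, no member differed between rb10 and WT by the test, where 0.00572% of all probe sets (1 of 17481, higher in rb10) passed and 0% were lower. WRKY47 came nearest. It read 9.72, 9.88 and 10.03 on the rb10 dark arrays and 10.19, 10.25 and 10.27 on the WT dark arrays, a difference of -0.36 (SE 0.12, limma adjusted p = 0.255). It was the only member whose dark groups did not overlap, where 16% of all probe sets did. At an unadjusted p under 0.05 it was also the only one. NAC014 differed by -0.08 (SE 0.12, adjusted p = 0.785).

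With the doubted array left out, 10.1% of all probe sets passed in the dark and the count of members was still 0. WRKY47 then stood at -0.43 (SE 0.13, limma adjusted p = 0.0637), WRKY22 at -0.40 (SE 0.15, adjusted p = 0.141) and WRKY6 at -0.27 (SE 0.11, adjusted p = 0.176). The unadjusted p of these 3 was under 0.05, and the dark groups of each did not overlap, as was so for 43.4% of all probe sets. For WRKY6 and WRKY22 they had overlapped with every array in. All 3 were the members called lower in rb10 after light. On the doubted array WRKY6 and WRKY22 lay inside the WT dark range, but so did 6 of the 8 members in all. The array was doubted because it read like WT dark, so larger dark differences without it are not independent of that choice. That fit has 2 rb10 dark arrays and takes their spread from all groups together. The light comparisons and the dark comparison share the dark arrays, so their values are not independent of each other.

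**Figure D4:**
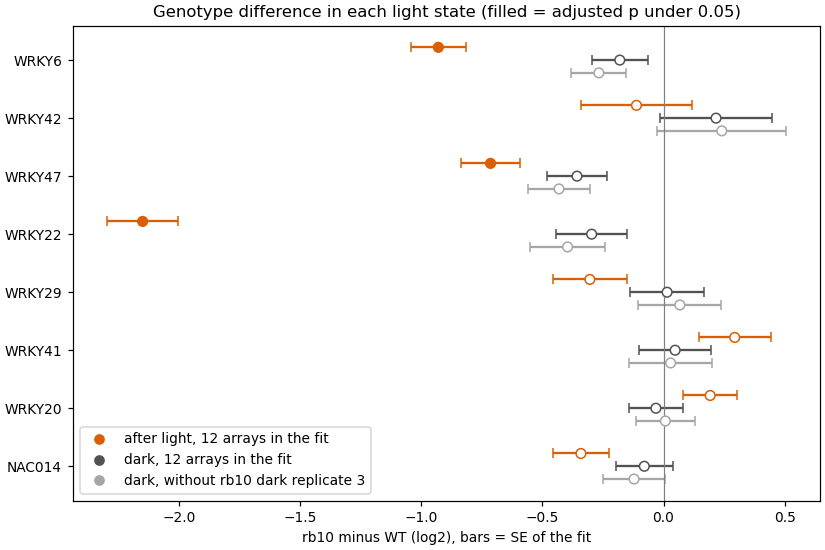
Difference rb10 minus WT (log2, horizontal axis) for each member after light (orange) and in the dark, with all arrays (dark grey) and without the array labelled rb10 dark replicate 3 (light grey); bars are 1 SE and filled points have adjusted p under 0.05. WRKY22, WRKY6 and WRKY47 are filled after light (-2.15, -0.93 and -0.71), and no point is filled in the dark.

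Set side by side, the 7 WRKY members did not move as a block. In rb10 the light effect had a median of -0.10 over the WRKY members (1 up, 1 down), against -0.03 over all probe sets. In WT the WRKY median was 0.09 (1 up, 0 down), against -0.06 over all. Between the genotypes after light the WRKY median was -0.30 (0 up, 3 down), against -0.02 over all, and for the difference of light effects it was -0.33 (0 up, 2 down), against 0.02 over all. In the dark it was -0.03, against -0.02 over all. The single NAC member had values of -0.52, -0.25, -0.34, -0.26 and -0.08 for the same comparisons in that order. With 1 NAC gene the families could not be compared beyond these values.

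Members of the same WRKY group were not tested against each other, and their calls were as follows. Of group IIb, WRKY6 changed with light in both genotypes, WRKY6 and WRKY47 were lower in rb10 after light (-0.93 and -0.71), and WRKY42 passed in no comparison. Replicates of WRKY42 were wide, with SDs of 0.21 to 0.43 in the 4 groups. Of group IIe, WRKY22 had a light effect of -1.64 in rb10 and 0.21 in WT, while WRKY29 had -0.38 and -0.06. WRKY41 and WRKY20 passed in no comparison, and in each of the 4 comparisons between groups their arrays overlapped.

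The AP2/ERF family, to which the ERF genes belong, was represented by genes with other names. Of a list of 36 such genes, 7 were paired with a probe set of their own: ABR1, DREB2C, LEP, ORA47, PUCHI, TINY and TINY2. ABR1, a repressor of abscisic acid responses, read 6.71, 6.72 and 7.07 in rb10 light and 7.21, 7.27 and 6.75 in rb10 dark. It read 9.88, 9.32 and 8.95 in WT light and 6.84, 6.99 and 6.93 in WT dark. Only the WT light arrays were high. ABR1 rose with light in WT by 2.46 (SE 0.22, limma adjusted p = 4.99e-05) and changed by -0.24 (SE 0.22, adjusted p = 0.612) in rb10. The difference of light effects was -2.71 (SE 0.31, adjusted p = 0.00223). With the doubted array left out, the change in rb10 was -0.41 (adjusted p = 0.419) and the difference -2.87 (adjusted p = 0.0031).

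TINY, a DREB-type factor that stunts growth when overexpressed, rose with light in both genotypes, by 2.32 (SE 0.24, limma adjusted p = 0.000184) in rb10 and 1.25 (SE 0.24, adjusted p = 0.00836) in WT. After light it was higher in rb10, averaging 7.66 ± 0.23 in rb10 light and 6.08 ± 0.15 in WT light (SD, n = 3 each), a difference of 1.59 (SE 0.24, adjusted p = 0.00155). The difference of its light effects did not pass (1.07, SE 0.34, adjusted p = 0.179). With the doubted array left out, the rise in rb10 was 2.04 (adjusted p = 0.000251) and the difference 0.79 (adjusted p = 0.217). With light, 1 of the 7 genes was called in rb10 and 2 in WT, both times upward, where 7.17% and 6.89% of all probe sets were called. After light 1 was higher and 1 lower in rb10, where 19.2% of all were called, so that count is near the background. In the dark 0 were called, where 0.00572% of all were, and for the difference of light effects 1, where 2.17% of all were. With the array labelled rb10 dark replicate 3 left out, TINY (0.79, adjusted p = 0.0343) and LEP (1.47, adjusted p = 0.0159) were higher in rb10 in the dark. In that fit 10.1% of all probe sets passed in the dark. LEP, a regulator of leaf shape, was then also called higher after light (adjusted p = 0.0108), averaging 8.02 ± 0.33 in rb10 light and 6.82 ± 0.53 in WT light (SD, n = 3 each). DREB2C, a factor of heat and drought responses, was then called lower in rb10 after light (-0.62, adjusted p = 0.0416). That made 2 higher and 2 lower of the 7 genes after light in that fit, where 23.6% of all probe sets passed. With every array LEP (adjusted p = 0.0709) and DREB2C (adjusted p = 0.0534) did not pass after light.

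**Figure D5:**
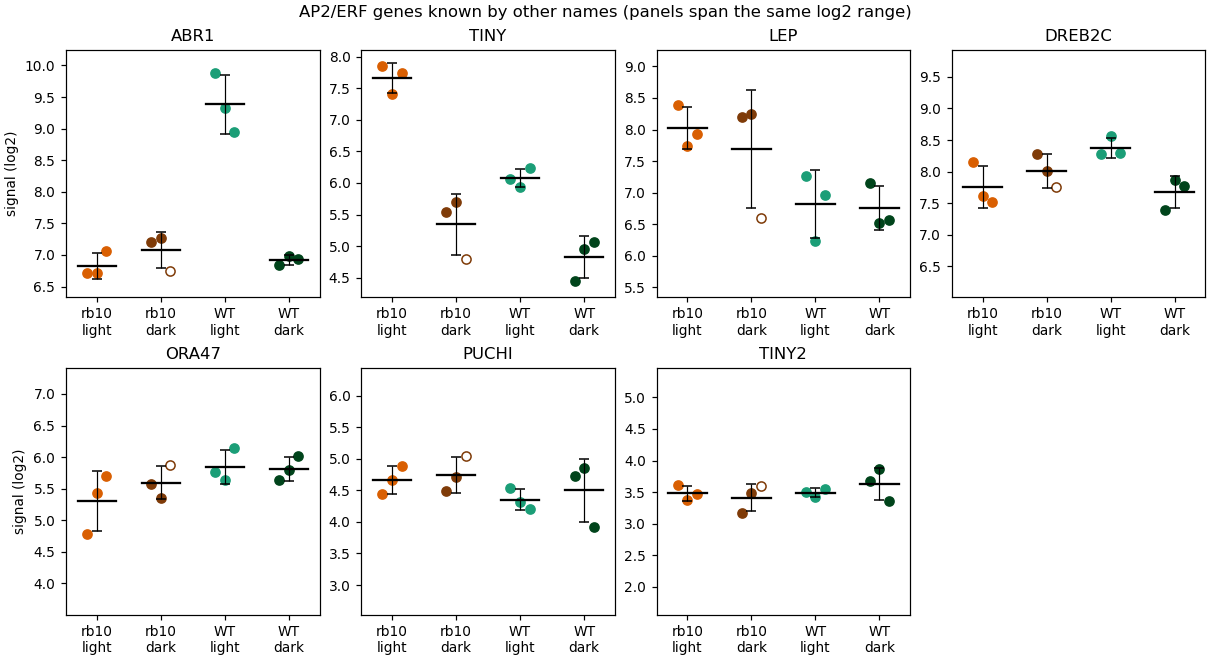
Signal (log2, vertical axes spanning the same range) of the 7 AP2/ERF genes with other names on each array, by group, with means ± SD over 3 arrays; the open circle is the array labelled rb10 dark replicate 3. ABR1 is high on the WT light arrays alone (8.95 to 9.88), and TINY is highest on the rb10 light arrays (7.41 to 7.85).

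Other marker genes moved with light on the same arrays. ROF2, a heat-induced prolyl isomerase gene and the 1 measured gene of a list of 20 heat response genes, rose by 3.65 (SE 0.33, limma adjusted p = 7.37e-05) in rb10 and by 5.47 (SE 0.33, adjusted p = 3.33e-06) in WT. After light it was lower in rb10, like WRKY6 and ABR1, by a difference of -1.72 (SE 0.33, adjusted p = 0.00556). The difference of its light effects was -1.82 (adjusted p = 0.0874), and -2.14 (adjusted p = 0.0327) with the doubted array left out, where the rise in rb10 was 3.33 (adjusted p = 0.000222). Its array values were 9.61 to 10.64 in rb10 light, 5.92 to 7.11 in rb10 dark, 11.80 to 12.06 in WT light and 5.96 to 6.75 in WT dark. Its part in the changes of WRKY6 and ABR1 was not tested. Of 15 genes listed for etiolated shoots, photosynthesis genes among them, 5 were measured. With light 1 rose and 3 fell in rb10, where 7.17% of all probe sets were called, and 1 rose and 2 fell in WT, where 6.89% were. After light IAA29, an auxin response gene, was lower in rb10 (-1.52, adjusted p = 0.000164) and RCA, the Rubisco activase gene, was higher (0.48, adjusted p = 0.0129), where 19.2% were called. The difference of light effects passed for IAA29 (-1.77, adjusted p = 0.00285), where 2.17% were called, and 0 of the 5 passed in the dark. With the doubted array left out, LHB1B2, which encodes a light-harvesting protein, also rose in rb10 (1.48, adjusted p = 0.00758, against 1.03 and adjusted p = 0.12 with every array). In the dark PORB, a chlorophyll synthesis gene, was then higher in rb10 (0.97, adjusted p = 0.00582) and LHB1B2 lower (-1.09, adjusted p = 0.0279), and PORB passed for the difference of light effects too (-1.19, adjusted p = 0.0239). In that fit 6.34% of all probe sets passed with light in rb10, 10.1% in the dark and 2.25% for the difference of light effects. With every array the mean signal of the 5 genes ran from 9.54 to 9.63 on the rb10 light arrays, 10.19 to 10.46 in rb10 dark, 9.62 to 9.82 in WT light and 10.03 to 10.38 in WT dark. That mean averages opposite movements, as with light in rb10 RCA rose by 0.72 (SE 0.11) and IAA29 changed by -3.44 (SE 0.15). It is therefore no measure of an etiolated state. The root hair genes EXPA7 and EXPA18, 2 of a list of 14, passed in no comparison. Of the 20 root barrier genes and the 14 MAP kinase and VQ partners of WRKY factors listed, 0 were paired with a probe set of their own.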

How the data were processed

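Each of the 12 samples was measured on 1 Affymetrix Gene 1.0 ST array. The table holds 1 log2 signal for each probe set and array, normalized by the authors before it was deposited. Per the submitters' processing notes RMA and GCRMA were used, with no version and no statement of which gave these values. No further normalization or signal filter was applied here. No array was a copy of another (highest correlation 0.992).

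Gene names came from the array's annotation. The 17481 probe sets with at least 1 gene were tested, and 3 with a family gene beside a second gene were not members. All 12 arrays went into a single model with a mean for each of 4 groups (limma 3.58.1 under R 4.3.3, with eBayes moderation from 2.79 prior beside 8 residual degrees of freedom), and p-values were adjusted by Benjamini-Hochberg within each of 5 comparisons. Intervals are 95% from the same fit. The limma call was tested on simulated data. Figures were drawn with matplotlib 3.10.9.

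The members and gene lists were chosen with earlier results of these data known. By the rule for named genes, up to 3 called members with the largest rise and fall per family and comparison are named, or where none is called the one of smallest p, and every other member is given with its values. Lists were matched by symbol or synonym, and a listed gene counts as measured where the annotation paired it with a probe set of its own. The alternatives left out each array in turn, fitted only the 2 groups compared, added the replicate number as a block, or changed the prior to a trended and robust one. Others set array medians equal, repeated quantile normalization, dropped the lowest 25% of probe sets, tested every probe set, or asked for a change of at least 1 beside the adjusted p. No promoter or protein sequence was used here, so a planned motif count was not run.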

Additional observations from a re-analysis of the deposited data

Results flagged for a closer look

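WRKY22 and WRKY6 stand out because their light effects differed between the genotypes by a test of the difference itself. For WRKY22 the light effect in rb10 minus that in WT was -1.85 in log2 (SE 0.21, limma adjusted p = 0.0019). Its 3 rb10 light arrays lay below all rb10 dark arrays, and 24.5% of all probe sets had no overlap there. Its 3 WT light arrays lay above all WT dark arrays, where 27.6% of all had no overlap, but that change of 0.21 did not pass (adjusted p = 0.508). For WRKY6 the difference of light effects was -0.75 (SE 0.16, adjusted p = 0.0401). Every light array of WRKY6 was above every dark array in both genotypes, beside the same shares of all probe sets. The call of WRKY6 held in 8 of 19 alternatives at the adjusted p alone. It was lost in 10 of the 12 fits that left out 1 array, and stood at -0.66 with adjusted p = 0.0603 when the doubted rb10 dark array, replicate 3, was the one omitted. The call of WRKY22 held in 19 of 19.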

How the results depend on the processing

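The members called were 3 for light in rb10, 1 for light in WT, 0 for genotype in the dark, 3 for genotype after light and 2 for the difference of light effects. Of all probe sets, 7.17%, 6.89%, 0.00572%, 19.2% and 2.17% were called in the same order. Leaving out each array in turn gave 1 to 3, 1 to 1, 0 to 0, 3 to 3 and 1 to 2 members in that order. Asking for a change of at least 1 as well gave 1 for light in rb10, 1 for genotype after light and 1 for the difference. Over all 17481 probe sets that setting called 280 up and 204 down, 627 higher and 570 lower, and 56 up and 233 down, in that order. A trended and robust prior, equal medians, and dropping the lowest 25% of probe sets each gave 4 for genotype after light, by adding NAC014. The calls over all probe sets rose too. They were 1995 higher and 1954 lower of 17481 with that prior, and 1899 higher and 1812 lower of 13111 with the lowest 25% dropped. The rb10 groups alone gave 1 for light in rb10, and testing every probe set gave 1 for the difference. Whether same-numbered arrays of different groups were handled together cannot be settled with 3 arrays per group. Deviations of same-numbered arrays correlated at -0.04 to 0.07 and those of differently numbered arrays at -0.06 to 0.05. Of the 12 arrays, 6 lay closest to their own number. With a replicate block the counts were 3, 1, 0, 3 and 2, and all 40 changes kept their direction and call. In these alternatives 17 small uncalled changes turned sign, and the cause was not tested. With quantile normalization WRKY29 turned to -0.00925 for genotype in the dark, and with equal medians WRKY29 turned to -0.0581 and WRKY41 to -0.025 there. The other 14 turned when 1 array was left out. For genotype in the dark the omissions gave -0.0386 to 0.0672 for WRKY29, -0.021 to 0.1332 for WRKY41, -0.1011 to 0.00747 for WRKY20 and -0.1309 to 0.0086 for NAC014. For WRKY42 they gave -0.2055 to 0.0792 for light in rb10 and -0.3603 to 0.0664 for genotype after light. For WRKY29 they gave -0.1696 to 0.00546 for light in WT. Equal array medians moved all probe sets called after light to 1160 higher and 2656 lower in rb10, against 1700 higher and 1655 lower as deposited. The file holds no background level, so signal over background could not be stated.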

Other observations

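Lists of genes that work with MYB and NAC factors had few measured members. Of 2 measured senescence genes, SAG101, which encodes a lipase-like partner of the immune regulator EDS1, was lower in rb10 after light (-0.70, SE 0.13, limma adjusted p = 0.00371). SAG29, a sugar transporter gene, was higher (0.55, SE 0.17, adjusted p = 0.0422). It was dim, at 3.79 to 4.78 over all arrays, and whether its signal lay above background could not be stated. Both measured secondary wall genes, IRX10 (0.93, SE 0.19, adjusted p = 0.00762) and IRX15 (1.11, SE 0.34, adjusted p = 0.0412), which act in xylan synthesis, were higher in rb10 after light, where 19.2% of all probe sets were called. In the other 4 comparisons 0 genes of these 2 lists passed.

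Of 3 measured flavonoid enzymes, UGT78D2, a flavonoid glucosyltransferase, rose with light by 1.99 in rb10 (SE 0.28, limma adjusted p = 0.00156, or 1.96 and adjusted p = 0.00652 with the array labelled rb10 dark replicate 3 left out) and by 1.60 in WT (SE 0.28, adjusted p = 0.00517), and TT3 and UGT78D1 passed in neither. The 1 measured glucosinolate enzyme, UGT74B1, rose in WT (0.63, SE 0.15, adjusted p = 0.0239), and its change in rb10 was 0.39 (adjusted p = 0.151). MYC4, a bHLH factor of jasmonate signalling and 1 of 3 measured partners of MYB factors, rose in rb10 (0.58, SE 0.15, adjusted p = 0.0368), but stood at 0.43 (adjusted p = 0.0938) with the array labelled rb10 dark replicate 3 left out. Of all probe sets, 7.17% passed with light in rb10 (6.34% with that array left out) and 6.89% in WT. EIN3, the 1 measured ethylene gene, and PDF1.2, the 1 measured defence target, passed in no comparison with every array. PDF1.2 read 2.19 to 3.74 over all arrays, and whether its signal lay above background could not be stated. With the doubted array left out EIN3 was called lower in rb10 after light (-0.27, SE 0.08, adjusted p = 0.0417), where 23.6% of all probe sets passed. That difference was the same with every array (SE 0.10, adjusted p = 0.0855), as the comparison does not use the omitted array.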
